A study of Danio rerio with 9 samples.

Results

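Wnt signalling was examined in sorted zebrafish embryo cells through 59 genes, out of 20847 listed for both crest groups. They were found by gene symbol in the deposited crest table and joined by gene identifier to the count table. The rule itself uses names only, but the set was chosen with earlier results of these data known, and genes absent from the crest table, among them 13 with Wnt-type names and at most 78 reads in any 1 library of the count table, are not covered. By role they are 22 ligands, 12 receptors, 10 secreted modulators, 8 intracellular feedback genes and 7 nuclear factors. A gene counts as a member whether its transcripts are abundant or nearly absent, so every one of the 59 is accounted for.

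Wnt proteins are secreted, lipid-modified ligands that bind Frizzled receptors together with Lrp5 or Lrp6. In the canonical branch binding stabilises beta-catenin, which enters the nucleus and acts with the Lef and Tcf factors on target genes, among them axin2, sp5 and nkd1, several of which dampen the pathway again. In the vertebrate embryo Wnt ligands of the dorsal neural tube take part in inducing neural crest and later favour pigment cell fates, while other ligands act on cell polarity and movement. Secreted proteins of the Sfrp and Dkk families antagonise the pathway outside the cell, and R-spondins strengthen it by keeping receptors at the surface.

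Neural crest cells leave the dorsal neural tube and migrate widely, the cardiac crest reaching the heart and the trunk crest giving pigment cells, neurons and glia. Bulk RNA-seq was made from 9 libraries, 3 in each of 3 groups. Cardiac crest was the mCherry-positive and non-crest the mCherry-negative fraction sorted by flow cytometry from 1 tissue, which reached from the midbrain-hindbrain boundary to somite 6, at the 16-somite stage (17 h post-fertilisation) as labelled, although the name of the count table gives another somite count. Both came from 1 transgenic line. Its element -4.9sox10:GAL4-UAS-cre puts GAL4 under a sox10 regulatory fragment and Cre under GAL4, its element UAS:NfsB-mCherry gives a nitroreductase-mCherry fusion under GAL4, and its element myl7:nucGFP puts nuclear GFP under a heart muscle promoter. Trunk crest was the GFP-positive fraction from Tg(-4.9sox10:eGFP) embryos at 24 h, taken between somites 7 and 16. Cardiac and trunk crest thus differ in axial level, age, fish line and reporter, which cannot be told apart, and non-crest is a mixture of whatever cells lacked mCherry. The count table held 34062539 to 45172404 reads per library, and the trunk crest libraries 25128422 to 29842884 reads over the listed genes.

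Marker genes of other cell types were present to different extents in the fractions. The 4 listed crest markers (sox10, tfap2a, ets1 and snai1b) summed to between 855 and 1049 RPM (reads in each 1000000 over the genes that both tables list) in cardiac crest, between 27.6 and 122 in non-crest and between 1127 and 1270 in trunk crest. Summed over 6 muscle markers, cardiac crest replicate 3 held 9070 RPM where replicates 1 and 2 held 20.3 and 27.6, while non-crest held 7159 to 11050 and trunk crest 5193 to 20280. Most of the 9070 was actc1b, at 8007 RPM. The muscle marker tnnt3a was not raised in cardiac crest replicate 3 (0.829, 1.85 and 0.923 RPM in replicates 1, 2 and 3), while the other listed muscle markers were. Over 3 listed neural tube markers (sox19a, elavl3 and dld) the sums were 156 to 413 RPM in cardiac crest, 295 to 921 in non-crest and 10.2 to 35.9 in trunk crest, with sox19a at 0 reads in every trunk crest library. Pigment markers (5 genes) stood at 44200 to 48810 RPM in trunk crest, against 12.2 to 45.1 in cardiac crest and 0.292 to 6.73 in non-crest. Epidermis markers (5 listed genes) summed to 275, 305 and 534 RPM in cardiac crest, 5731 to 15490 in non-crest and 27.3, 16.3 and 165 in trunk crest. This sum too was lowest in trunk crest, and the part of such cells in the Wnt values was not tested. Of these, cldni, a claudin gene, was at 83.4, 105 and 140 RPM in cardiac crest and at most 0.289 in trunk crest. Not every epidermis marker went that way. Levels of icn were 2.17, 3.58 and 0.82 RPM in cardiac crest and 0.27, 5.24 and 5.13 in trunk crest. Those of krt5 were 3.8, 4.8 and 5.2 RPM in cardiac crest and 14.1, 0.29 and 1.2 in trunk crest. Endothelium and blood markers (5 listed genes) summed to 4.38 to 6.66 RPM in cardiac crest, 421 to 1003 in non-crest and 0.434 to 1.17 in trunk crest. In bulk samples fewer cells of a type and less RNA per cell cannot be told apart.

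Most Wnt genes had their lowest level in trunk crest. On that common RPM scale the lowest of the 3 group means lay in trunk crest for 50 of the 59 (84.7%, against 55.4% of all genes). The highest of the 3 group means lay in cardiac crest for 29 members (49.2%, against 30.6% of all 20847 genes). It lay in non-crest for 26 (44.1%, against 42.0%) and in trunk crest for 4 (6.78%, against 27.4%). In trunk crest 38 of the 59 reached 1 RPM in at least 1 library, beside 15734 of all 20847 genes. In cardiac crest 53 members and 17254 of all genes did so, and in non-crest 53 and 17806. All 6 libraries of 17 h stood above all 3 trunk crest libraries for 26 members, where 18.8% of all genes did so, and below them for 1, wnt11, where 10.2% did. These counts set levels from separately processed tables side by side and carry no test.

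**Figure D1:**
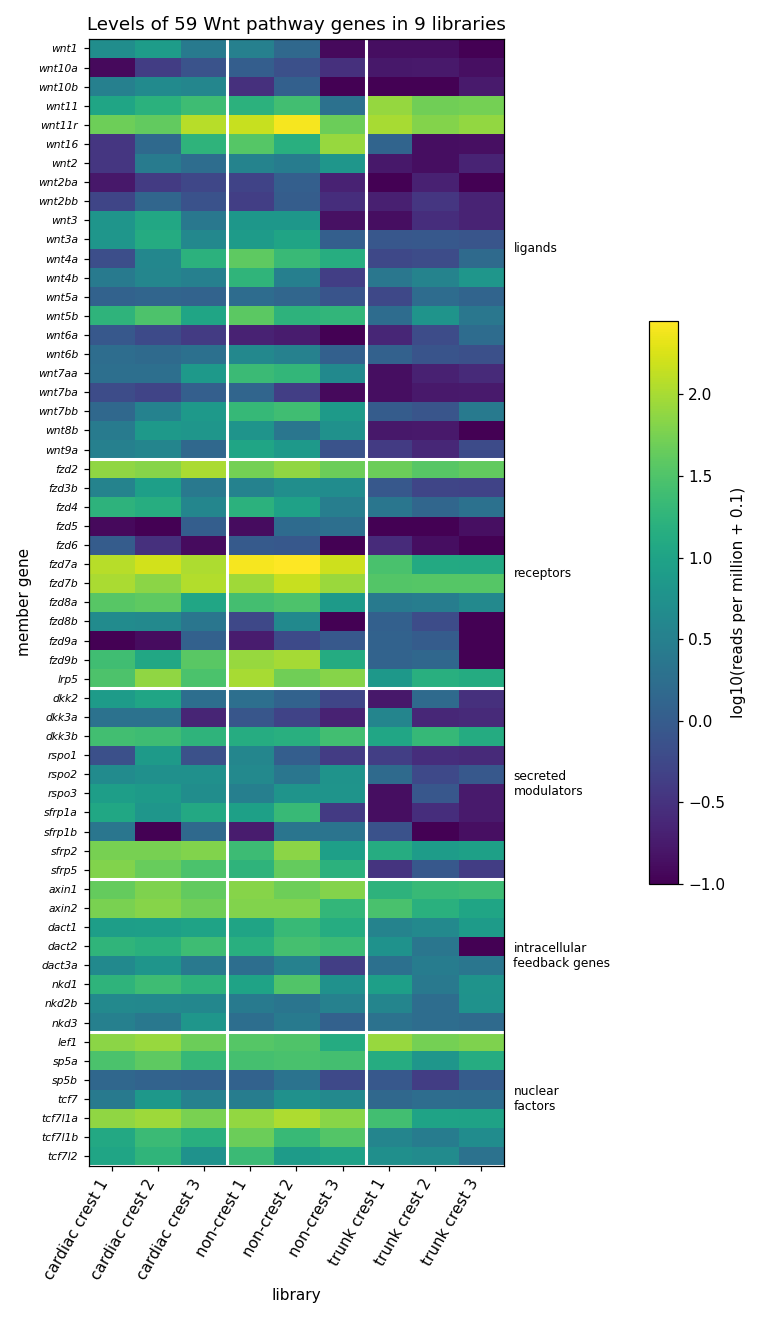
Levels of the 59 genes (rows, grouped by role) in the 9 libraries (columns), as colour on a log10(RPM + 0.1) scale. Colours are to be compared along a row, since counts were not divided by gene length. The 3 trunk crest columns are darker than the other 6 in most rows, wnt11 being brighter there, and non-crest replicate 3 is dark for several ligands.

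Against trunk crest, 28 of the 59 members were higher in cardiac crest and 1, wnt11, was lower, by limma on log2(scaled reads + 1) with Benjamini-Hochberg adjustment over all 20847 genes and a threshold of 0.05. The other 30 did not pass. The authors' deposited table called members in both directions, 31 with more transcripts in cardiac crest and 1 with more in trunk crest. The share of all genes that the authors called was not computed, so these 2 counts have no background here. Whether replicates were separate clutches or sorts is not labelled, and p-values then reflect only how these libraries vary, which may be technical. By limma 10.7% of all genes were called higher and 12.5% lower. The members' median log2 fold change was 1.82, beside 0.14 for all genes, and 51 of 59 were positive. All 3 cardiac crest libraries lay above all 3 trunk crest libraries for 34 members and below them for 1, where 21.5% and 19.9% of all genes did. Scaling mattered for the background: with library totals in place of the deposited size factors 3493 genes were called higher and 1895 lower (64.8% of the calls higher, beside 46.2%), and the median of all genes moved to 0.46. Relative to that median the members stood 1.68 higher with the deposited factors, 1.60 with library totals and 1.64 with upper-quartile factors.

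Ligand transcripts gave 10 of 22 higher and 1 lower in cardiac crest against trunk crest. Among the 10 were several ligands known from the dorsal neural tube and brain, wnt1, wnt3, wnt3a, wnt8b and wnt10b. For wnt1 (chromosome 23, 27725129 to 27731964, GRCz10), a ligand of the midbrain-hindbrain boundary and roof plate, levels were 4.77, 8.08 and 2.57 RPM in cardiac crest, 3.11, 1.35 and 0.0224 in non-crest, and 0.0335, 0.0362 and 0 in trunk crest. Cardiac crest lay wholly above trunk crest and overlapped non-crest. With 591 reads against 2, the ratio of pooled levels was 206 (95% counting interval 56.7 to 1702), and limma gave an adjusted p of 0.000525. Its neighbour wnt10b lies 3900 bases away on the opposite strand, the pair pointing away from each other. It stood at 3.07, 4.38 and 3.77 RPM in cardiac crest, 0.198, 1.04 and 0 in non-crest, and 0, 0 and 0.0796 in trunk crest, which left the 3 cardiac crest libraries above all 6 others. Pooled reads were 437 against 2, a ratio of 152 (41.8 to 1259; limma adjusted p = 0.000786).

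The other ligands of this set were also lowest in trunk crest. Transcripts of wnt3a, which acts in crest induction and tail growth, were at 6.41, 13.0 and 3.99 RPM in cardiac crest, at 7.71, 10.1 and 1.01 in non-crest, and at 0.771, 0.795 and 0.716 in trunk crest. Its trunk crest values were close together and below the other 6 libraries (log2 fold change 2.81 ± 0.54, SE; limma adjusted p = 0.00644). For wnt3 the 3 groups read 6.16, 11.6 and 2.30, then 6.53, 6.59 and 0.0449, then 0.0335, 0.181 and 0.119 RPM (5.15 ± 0.79; limma adjusted p = 0.00220). Levels of wnt8b were 2.60, 7.05 and 6.51 RPM in cardiac crest and at most 0.0723 in trunk crest, where the 3 libraries held 4 reads together (5.94 ± 0.76; limma adjusted p = 0.000895). All 5 of wnt1, wnt3, wnt3a, wnt8b and wnt10b remained called in each fit that left out 1 library. The summed neural tube markers given above were likewise lowest in trunk crest. Between cardiac crest and non-crest none of these 5 ligands was called. The part of neural tube cells in these values was not tested.

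Not all ligands followed that pattern, the Wnt11 genes among them. Transcripts of wnt11, a ligand known for cell movements and heart development (chromosome 5, 35913452 to 35919964), were at 10.7, 16.0 and 24.0 RPM in cardiac crest, 16.5, 25.7 and 1.84 in non-crest, and 79.5, 50.6 and 54.0 in trunk crest. Trunk crest lay above all 6 libraries of 17 h, and the log2 fold change was -2.24 ± 0.33 (limma adjusted p = 0.00172, between 0.00120 and 0.0129 without any 1 library). Its paralogue wnt11r was at 49.1, 41.3 and 121 RPM in cardiac crest and 101, 65.3 and 77.4 in trunk crest, so the groups overlapped (-0.69 ± 0.40; limma adjusted p = 0.254). Without cardiac crest replicate 3, wnt11r was called lower as well (-1.17, limma adjusted p = 0.0212).

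The remaining 5 called ligands were wnt2, wnt5b, wnt7aa, wnt7ba and wnt9a. For wnt5b, a ligand of the polarity branch, cardiac crest held 17.7, 30.4 and 10.6 RPM and trunk crest 1.54, 5.96 and 2.27 (2.35 ± 0.58; limma adjusted p = 0.0199). The wnt5b difference no longer passed when cardiac crest replicate 1 (0.0713) or 2 (0.0940) was left out, or trunk crest replicate 1 (0.0536) or 3 (0.0502). Transcripts of wnt7aa were at 1.75, 1.70 and 7.24 RPM in cardiac crest, 22.1, 18.9 and 4.29 in non-crest and 0.0335, 0.108 and 0.159 in trunk crest (4.27 ± 0.82; limma adjusted p = 0.00643), and the call remained without any 1 library. Calls of wnt2 (3.14 ± 0.93), wnt7ba (2.55 ± 0.77) and wnt9a (2.67 ± 0.69) were each lost in 4 or more of the 6 fits that left out a library, at adjusted p-values of up to 0.148, 0.114 and 0.0932. The 11 ligands that did not pass ran in log2 fold change from -0.69 for wnt11r to 3.14 for wnt16. Also below 0 were wnt4b (-0.58), wnt6a (-0.32) and wnt5a (-0.04).

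Receptor transcripts gave 7 of 12 higher and 0 lower in cardiac crest against trunk crest. They were fzd3b, fzd4, fzd7a, fzd7b, fzd8a and fzd9b among the Frizzled genes, and lrp5, the low density lipoprotein receptor-related co-receptor. For fzd7a (chromosome 9, 13381105 to 13383868), a Frizzled receptor gene, levels were 120, 163 and 108 RPM in cardiac crest, 253, 283 and 155 in non-crest, and 28.7, 12.4 and 12.1 in trunk crest. The trunk crest values were the lowest of the 9 by a wide gap (2.64 ± 0.34; limma adjusted p = 0.000969). Its paralogue fzd7b stood at 105, 70.6 and 114 RPM in cardiac crest and at 33.5, 35.1 and 34.3 in trunk crest, a smaller difference (1.13 ± 0.27; limma adjusted p = 0.0175, and 0.0693 without cardiac crest replicate 1).

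Of the other Frizzled genes, fzd8a was at 35.9, 39.1 and 11.0 RPM in cardiac crest, 26.1, 30.4 and 7.49 in non-crest and 2.58, 2.78 and 4.10 in trunk crest (2.67 ± 0.52; limma adjusted p = 0.00694). In both groups of 17 h its replicate 3 was the low library, and still lay above trunk crest. For fzd9b the cardiac crest values were 24.3, 11.5 and 37.1 RPM and the trunk crest values 1.14, 1.30 and 0, with a wide error (5.63 ± 1.36; limma adjusted p = 0.0178). The call of fzd9b was lost without any 1 of the 3 cardiac crest libraries, at 0.0655, 0.0519 and 0.0581 for replicates 1, 2 and 3. Calls of fzd3b, fzd4 and lrp5 (log2 fold changes 2.61, 2.14 and 1.55) were lost in 2, 5 and 3 of the 6 such fits, at adjusted p-values of up to 0.0710, 0.137 and 0.116. Among the 5 receptors that did not pass, fzd2 and fzd8b had non-overlapping groups. For fzd2 the levels were 76.4, 66.4 and 104 RPM in cardiac crest and 48.1, 36.2 and 41.8 in trunk crest. Its log2 fold change was 0.62 ± 0.26 (limma adjusted p = 0.115, and 0.0194 with library totals). For fzd8b they were 4.48, 4.11 and 2.17 RPM in cardiac crest and 1.04, 0.542 and 0 in trunk crest. The fzd8b log2 fold change was 3.42 ± 1.24 (limma adjusted p = 0.0785, and 0.0348 with a pseudocount of 10). The receptor genes fzd5, fzd6 and fzd9a stayed at or below 1.73 RPM in every library.

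Secreted modulators gave 6 of 10 higher and 0 lower in cardiac crest, and all 10 log2 fold changes were positive. The steepest was sfrp5 (chromosome 13, 39785661 to 39821445), a secreted Frizzled-like antagonist, at 62.8, 45.2 and 29.6 RPM in cardiac crest, 17.7, 43.6 and 16.7 in non-crest and 0.235, 0.795 and 0.318 in trunk crest. Every library of 17 h exceeded every trunk crest library by far (6.37 ± 0.56; limma adjusted p = 0.000149, at most 0.00276 without any 1 library). Its relative sfrp1a stood at 11.3, 6.46 and 11.9 RPM in cardiac crest and 0.0335, 0.181 and 0.0796 in trunk crest, while non-crest spread from 0.292 in replicate 3 to 21.0 in replicate 2 (6.10 ± 0.68; limma adjusted p = 0.000440). For sfrp2 the 3 cardiac crest libraries agreed closely, at 55.9, 55.2 and 62.6 RPM, and trunk crest held 13.5, 7.92 and 9.15 (2.21 ± 0.28; limma adjusted p = 0.000833). All 3 of these Sfrp genes remained called without any 1 library.

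R-spondin genes went the same way as the antagonists. For rspo3 the values were 8.53, 7.43 and 4.84 RPM in cardiac crest, 3.02, 6.09 and 5.97 in non-crest and 0.0335, 0.759 and 0.0796 in trunk crest (4.96 ± 0.94; limma adjusted p = 0.00628). Other genes share 35.5% of the bases of the rspo3 gene body, so its counts are uncertain, to an extent that was not measured. Levels of rspo2 were 4.59, 5.35 and 5.34 RPM in cardiac crest and 1.47, 0.470 and 0.796 in trunk crest (2.26 ± 0.54; limma adjusted p = 0.0180), which no longer passed on leaving out cardiac crest replicate 1 (0.0606) or 2 (0.0603) or trunk crest replicate 2 (0.0539). The Dickkopf gene dkk2, an extracellular modulator that acts through Lrp co-receptors, was at 7.64, 10.6 and 1.65 RPM in cardiac crest and 0.0670, 1.48 and 0.199 in trunk crest. Its lowest cardiac crest library barely cleared the highest trunk crest one, and the groups overlapped on the scaled reads (3.68 ± 1.10; limma adjusted p = 0.0407, up to 0.156 without 1 library, and 0.0739 by edgeR on the recovered reads). Not called were dkk3a, dkk3b, rspo1 and sfrp1b, with log2 fold changes between 0.28 and 2.28.

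The class of feedback genes was set by gene name (axin, nkd and dact genes), so it takes in axin1, a core component of the pathway. It gave 3 of 8 higher in cardiac crest, axin1, axin2 and nkd1. The scaffold protein gene axin2, a widely used readout of canonical signalling (chromosome 3, 55379519 to 55399162), was at 58.0, 66.2 and 50.3 RPM in cardiac crest, 62.1, 63.0 and 19.1 in non-crest and 28.8, 15.6 and 10.6 in trunk crest. Cardiac crest cleared trunk crest in every library, while non-crest replicate 3 fell within the trunk crest range (1.45 ± 0.36; limma adjusted p = 0.0196). For axin2 the test was missed on leaving out cardiac crest replicate 1 (0.0713) or 2 (0.0733) or trunk crest replicate 2 (0.0548) or 3 (0.0505), the log2 fold change staying between 1.11 and 1.82. For nkd1, a Dishevelled-binding feedback inhibitor, it was 1.60 ± 0.47 (limma adjusted p = 0.0381), and for axin1, the core scaffold of the destruction complex, 0.90 ± 0.25 (limma adjusted p = 0.0321). Both calls were lost in 5 of the 6 fits without a library, at up to 0.128 and 0.101. The largest change among the feedback genes was in dact2, a Dishevelled-binding modulator, at 18.0, 15.6 and 24.0 RPM in cardiac crest and 5.63, 2.13 and 0 in trunk crest (4.43 ± 1.69). It did not pass (limma adjusted p = 0.0954, and 0.0334 with a pseudocount of 10). The size of the dact2 change depended on trunk crest replicate 3, which held 0. Without that library it was 2.10 and passed (limma adjusted p = 0.0217). Without trunk crest replicate 1 it was 5.925 and also passed (limma adjusted p = 0.03925). On the recovered reads edgeR gave 2.60 for dact2 (adjusted p = 0.131).

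Among nuclear factors 2 of 7 were higher in cardiac crest and 0 lower. The Tcf7l1 genes, whose proteins mostly repress targets when beta-catenin is absent, were the 2, and lef1, a mainly activating partner of beta-catenin, was not called. Levels of tcf7l1a (chromosome 10, 42367347 to 42469519) were 76.2, 89.0 and 57.1 RPM in cardiac crest, 79.1, 107 and 68.0 in non-crest and 25.1, 9.98 and 9.51 in trunk crest (2.11 ± 0.38; limma adjusted p = 0.00515). For tcf7l1b they were 12.2, 22.4 and 14.9, then 46.8, 21.4 and 34.1, then 3.62, 2.68 and 4.66 RPM (1.82 ± 0.37; limma adjusted p = 0.00901). Both calls remained without any 1 library. The target gene sp5a was at 30.1, 39.8 and 20.8 RPM in cardiac crest and 13.6, 6.51 and 13.7 in trunk crest, with no overlap, but did not pass (1.12 ± 0.38; limma adjusted p = 0.0638, and 0.0271 with library totals). The other 3 uncalled factors, sp5b, tcf7 and tcf7l2, had log2 fold changes of 0.56, 1.01 and 1.20.

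Levels of lef1 (chromosome 1, 49170635 to 49259661) divided the libraries in another way. They were 70.7, 83.7 and 47.3 RPM in cardiac crest, 34.3, 31.2 and 13.1 in non-crest and 82.9, 53.9 and 60.6 in trunk crest. Both crest groups lay wholly above non-crest and overlapped each other, with a log2 fold change of -0.32 ± 0.27 against trunk crest (limma adjusted p = 0.439). Against non-crest it was 1.43 ± 0.39 by edgeR's quasi-likelihood test (adjusted p = 0.170), and DESeq2 called the same difference (1.43, adjusted p = 0.0372).

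**Figure D2:**
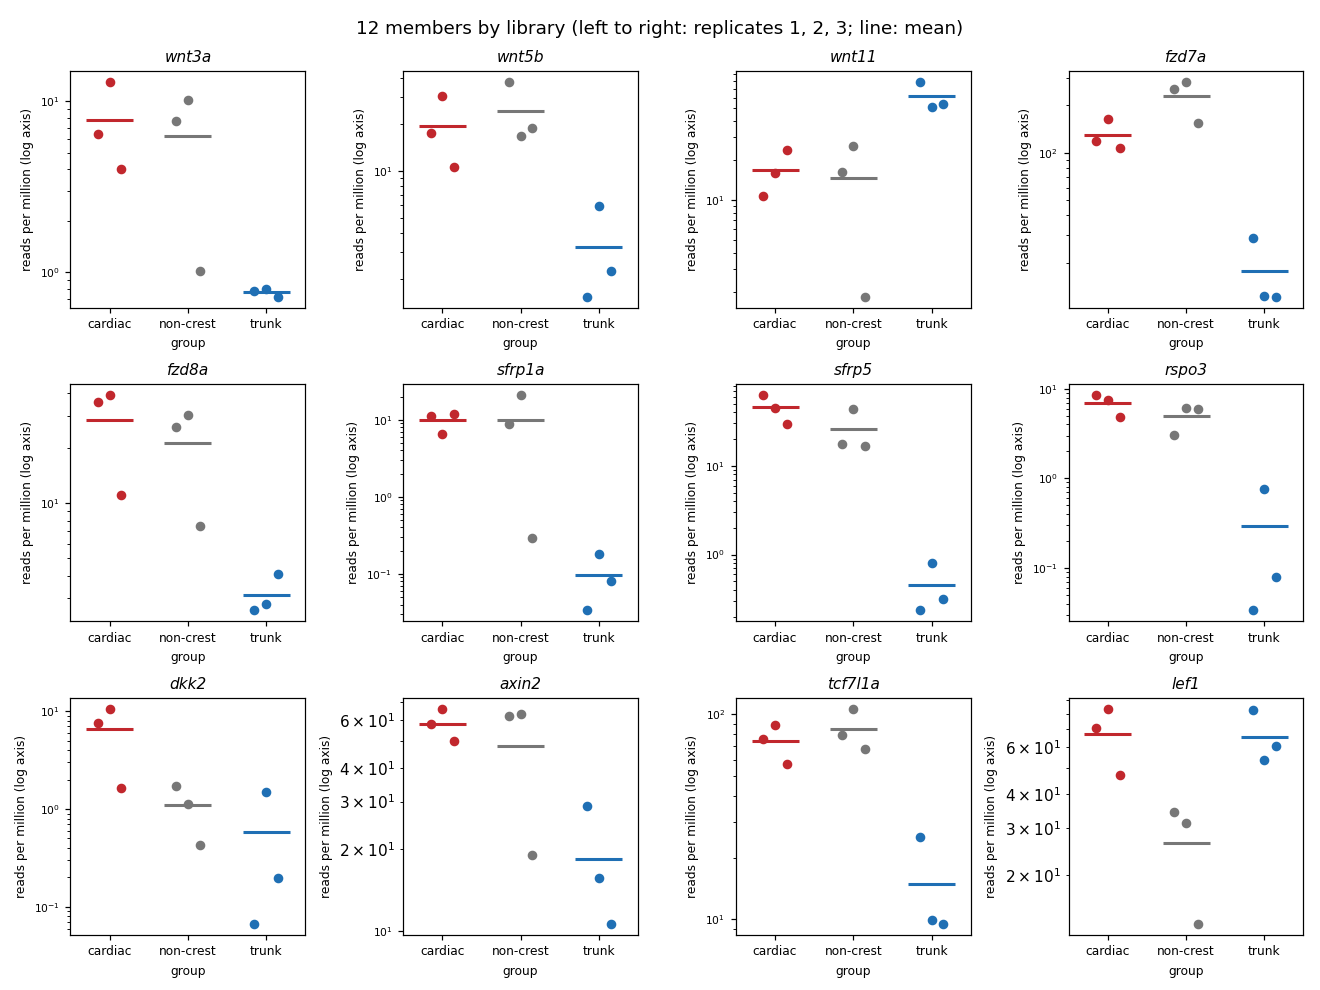
Levels in RPM (log axes) in each library for 12 members, with replicates 1, 2 and 3 from left to right and the group mean as a line. For sfrp5 trunk crest lies at or below 0.795 and all other libraries at or above 16.7, wnt11 has trunk crest on top, and for lef1 both crest groups lie above non-crest.

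In the comparison with the mCherry-negative cells sorted alongside, 0 of the 59 members differed by edgeR's quasi-likelihood test with Benjamini-Hochberg adjustment, where 1.50% of 19648 tested genes did. All 59 passed the expression filter. At an unadjusted p below 0.05 there were 8 members, beside 10.8% of all genes. DESeq2 called 3 members, dkk2 and lef1 higher and wnt7bb lower, beside 5.30% of the genes it gave an adjusted p. All cardiac crest libraries lay above all non-crest libraries for 4 members (lef1, nkd2b, wnt6a and wnt10b) and below for 3 (dact1, wnt2 and wnt7bb), where 8.76% and 8.26% of all genes did. The members' median log2 fold change was 0.12, beside -0.04 for all genes, with 33 positive and 26 negative.

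By role, the medians against non-crest were -0.49 for ligands, -0.20 for receptors, 0.66 for secreted modulators, 0.37 for feedback genes and 0.04 for nuclear factors. The standard error of the log2 fold change had a median of 0.67 over the members and reached 1.75, which limits what size of change these 6 libraries could show. Among secreted modulators 9 of 10 log2 fold changes were positive, none of them called, beside 9341 positive of all 19648 genes. The highest was that of dkk2, at 7.64, 10.6 and 1.65 RPM in cardiac crest and 1.72, 1.12 and 0.426 in non-crest (2.68 ± 0.84, edgeR adjusted p = 0.253, and 0.0160 by DESeq2). Cardiac crest replicates 1 and 2 were well above non-crest and replicate 3 within it. Not all of the positive signs were stable. With 1 library left out, the log2 fold changes of rspo1, sfrp1a and rspo2 fell as low as -1.29, -0.50 and -0.06.

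The lowest among ligands was wnt16, at 0.246, 1.41 and 17.7 RPM in cardiac crest and 34.9, 14.8 and 82.0 in non-crest. Its cardiac crest replicate 3 fell inside the non-crest range (log2 fold change -2.87 ± 1.35, edgeR adjusted p = 0.503). Reads of wnt16 are uncertain, because it shares 57.7% of its gene body with another gene. Leaving out replicate 3 of both groups brought 4 of 57 tested members past the test, beside 752 of 20068 genes, 612 of them lower. The 4 were ligands, all lower in cardiac crest: wnt16 (-4.88, edgeR adjusted p = 0.0407), wnt7aa (-3.48, 0.0132), wnt7bb (-3.20, 0.0319) and wnt11r (-2.04, 0.0310). With only cardiac crest replicate 3 or only non-crest replicate 3 left out, 0 members passed. Each of the 4 was nearer to non-crest in cardiac crest replicate 3 than in replicates 1 and 2. That was largely set in advance, since the 4 were picked by leaving replicate 3 out. Summed muscle markers also differed there (9070 RPM against 20.3 and 27.6, mostly actc1b), and their part in these values was not tested. Non-crest replicate 3 was itself the lowest non-crest library for wnt7aa (4.29 RPM against 22.1 and 18.9) and wnt11r (47.6 against 146 and 252). For wnt7bb it was the lowest too (7.58 against 20.4 and 24.6), and for wnt16 the highest. Among members at 5 RPM or more in the higher group, the largest change of a receptor was in fzd9b (-1.29 ± 0.67, edgeR adjusted p = 0.558) and that of a feedback gene in dact1 (-0.69 ± 0.42, edgeR adjusted p = 0.635). For dact1, a Dishevelled-binding modulator, cardiac crest held 8.60, 8.78 and 9.86 RPM and non-crest 10.1, 21.0 and 13.6, without overlap.

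**Figure D3:**
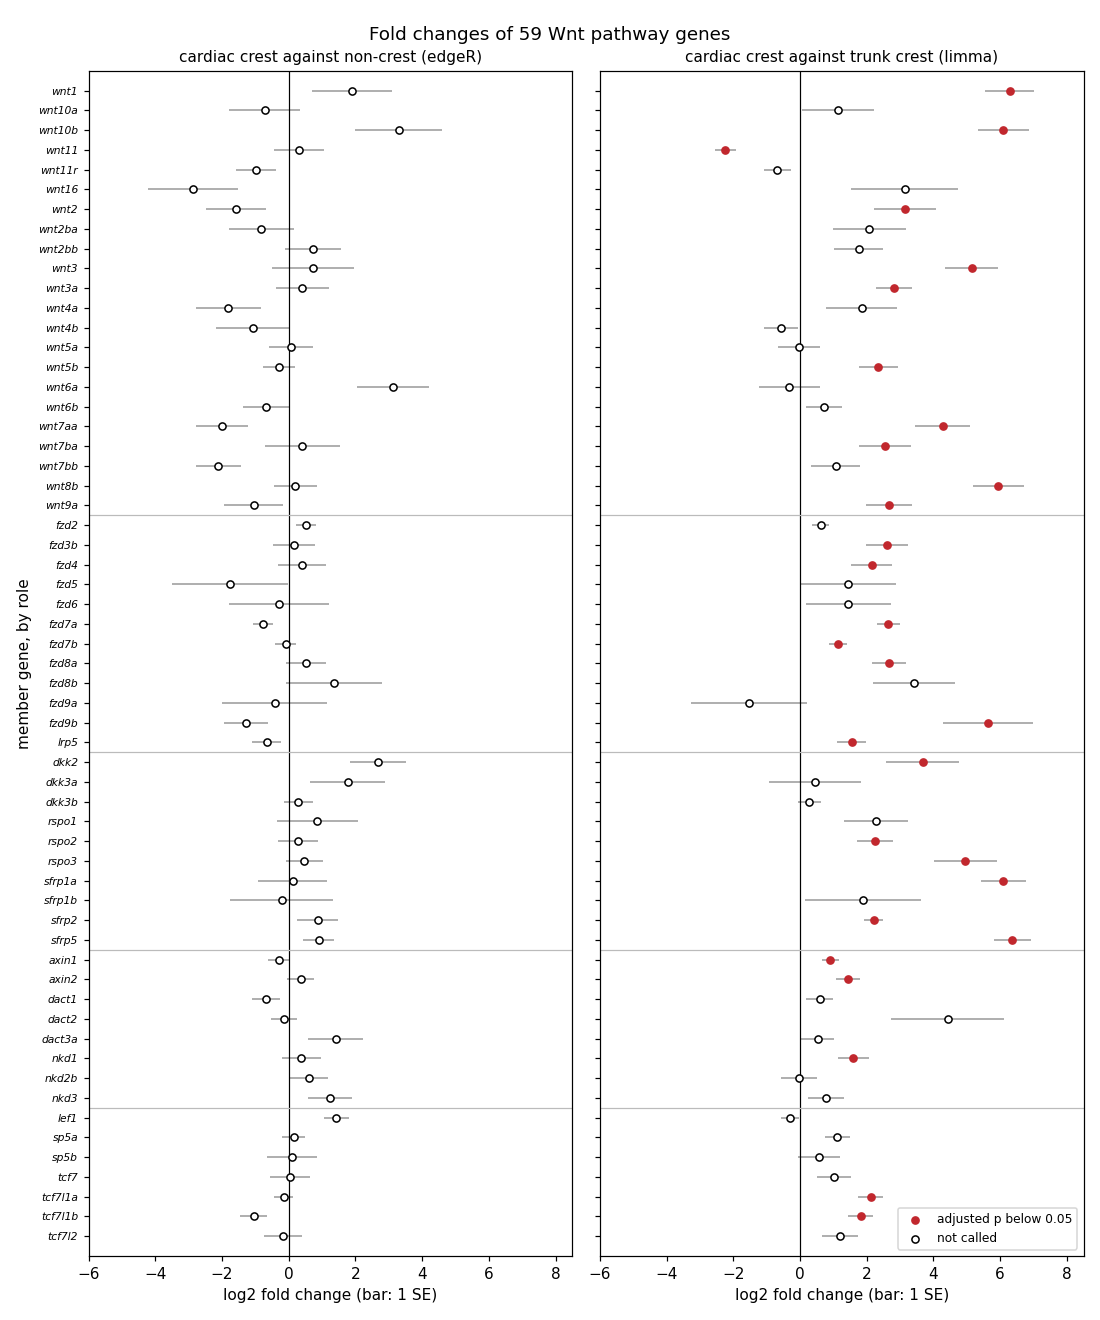
Log2 fold change of each member (points; bars are 1 standard error) in cardiac crest against non-crest on the left and against trunk crest on the right, grouped by role with ligands at the top. Filled points passed an adjusted p below 0.05, 0 on the left and 29 on the right, of which 28 lie to the right of 0. Both panels use the same 3 cardiac crest libraries, so they are not independent of each other.

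Replicate libraries were not alike for the Wnt genes. Counting members that reached 1 RPM in at least 1 library of their group, non-crest replicate 3 lay 3 times or more below both other non-crest libraries for 20 of 53 members (37.7%), and for 18.1% of all such genes. They included 12 ligands, with wnt1, wnt3, wnt3a, wnt9a and wnt11 among them, 4 Frizzled genes, axin2 and sfrp1a. In cardiac crest, replicate 3 lay that far above both others for 4 of 53 members (fzd9a, wnt4a, wnt7aa and wnt16; 4.28% of all genes) and that far below for 4 (dkk2, dkk3a, fzd4 and fzd8a; 4.37%). Cardiac crest replicate 1 lay that far below both others for 4 (fzd9a, wnt2, wnt4a and wnt16), and for 3.78% of all genes. In trunk crest, replicate 3 lay that far below both others for 4 of 38 members (dact2, fzd8b, fzd9a and fzd9b), and for 5.90% of such genes. Of the 28 members higher than trunk crest in cardiac crest, 20 had all 6 libraries of 17 h above trunk crest. These 28 were called for being higher in cardiac crest, so that part of the count was largely set in advance. The matching share among all genes called higher was not computed. In the other 8 (axin2, dkk2, nkd1, sfrp2, wnt1, wnt3, wnt7ba and wnt10b) the lowest library of 17 h was non-crest replicate 3. Without that library the members' median against non-crest moved from 0.12 to -0.04, with 26 positive and 33 negative.

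Other genes of the pathway came from a wider list. Of 66 further components, 55 were tested, and 19 were higher, 3 lower and 33 not called in cardiac crest against trunk crest, with a median log2 fold change of 0.83. Of 16 target genes outside the 59, 12 were tested, with 4 higher, 1 lower and 7 not called and a median of 1.26. Over all genes 10.7% were called higher and 12.5% lower, with a median of 0.14. Against non-crest 0 of the 55 and 0 of the 12 passed edgeR, where 1.50% of all tested genes did. DESeq2 called 5 genes of the 2 lists, beside 5.30% of all genes it gave an adjusted p. Among the called genes of both lists the steepest rises were in cdx4, a posterior homeobox target (6.12 ± 1.32, limma adjusted p = 0.0113), sall4, a zinc finger target (5.09 ± 1.14, limma adjusted p = 0.0133) and apcdd1l, related to a membrane antagonist of Wnt (3.81 ± 1.08, limma adjusted p = 0.0345). The 3 called genes with the largest falls were mitfa, the melanocyte regulator (-3.67 ± 0.47, limma adjusted p = 0.000909), csnk1e, a casein kinase gene (-3.37 ± 0.26, limma adjusted p = 8.18e-05) and the polarity gene prickle1a (-2.61 ± 0.33, limma adjusted p = 0.000813). Trunk crest held 230, 120 and 113 RPM of mitfa and cardiac crest 27.8, 12.6 and 8.43, alongside the pigment markers given above.

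Transcripts of wls, which encodes the carrier that brings Wnt ligands to the cell surface, were picked after their values were seen. They stood at 398, 363 and 400 RPM in cardiac crest, at 165, 390 and 135 in non-crest and at 133, 119 and 122 in trunk crest (1.30 ± 0.19 against trunk crest, limma adjusted p = 0.00168). Cardiac crest and trunk crest each varied little, and non-crest replicates 1 and 3 stood well below replicate 2.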

How the data were processed

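RNA was amplified with the SMART-Seq v4 kit and sequenced single-end, per the labels' protocols, without molecular identifiers, so intervals cover counting error only. The count table holds whole read counts per gene, deposited unscaled, made by featureCounts 1.5.1 on Ensembl release 80 gene bodies (introns included, no strand option), per the file headers. Alignment used Bowtie2 and GRCz10, per the submitters' processing notes. The crest table holds reads that the authors divided by a size factor per library (a scaled signal), the authors' log2 fold changes and the authors' p-values. Dividing out those factors returned whole reads for 100% of values (tolerance 0.02), which for cardiac crest equal the count table.

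Cardiac crest against non-crest was tested with edgeR 4.0.16 (filterByExpr, TMM, robust quasi-likelihood), and its SE is the log2 fold change divided by the root of the test's F. Cardiac against trunk crest was tested with limma 3.58.1 (trend, robust) on log2(scaled reads + 1) over all listed genes, with ± giving the SE. Its log2 fold changes of genes with few reads could be smaller or larger than the authors' own. For wnt1 it gave 6.28 where the authors had 7.38, and for dact2 4.43 where they had 2.58. The count test on the recovered reads called 26 of 54 tested members, beside 4546 of 18234 genes. Trunk crest and non-crest were not tested against each other. Both tests were checked on simulated counts with the same dispersion setting for every gene, no deviant library, and changes planted only in well-covered genes. The check therefore does not cover genes with few reads or groups with an outlying library. DESeq2 1.42.0 was an alternative, run in R 4.3.3. Levels in RPM are not divided by gene length and are not compared between genes.

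Members and lists were chosen with earlier results of these data known. Members called in either comparison are named, with the largest change of each role at 5 RPM or more in the higher group, and the 3 largest called changes each way in the wider list. Others named, including wnt11r, fzd2, sp5a and wls, were chosen after their values were seen. Another 13 identifiers with Wnt-type names outside the crest table were not analysed here.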

Additional observations from a re-analysis of the deposited data

How the results depend on the processing

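Against non-crest, 0 members were called with RLE size factors, library totals, no expression filter or the replicate block, and 0 to 0 without any 1 library. DESeq2 called 3 (2 higher, 1 lower), with 1116 genes and 5 of the wider list. Without replicate 3 of both groups there were 4 members, all lower, with 752 genes and 3 of the wider list. Leaving out 1 library gave 93 to 361 genes, beside 294.

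Against trunk crest, leaving out 1 library gave 16 to 27 members (15 to 25 higher, 1 to 2 lower), 3205 to 4591 genes and 17 to 24 of the wider list. The fewest members, 16, were called without cardiac crest replicate 1 and without cardiac crest replicate 2, and 15 of the 29 calls held in all 6 such fits. Library totals and upper-quartile factors each gave 30 higher and 1 lower. Of all 20847 genes, library totals gave 3493 higher and 1895 lower, and upper-quartile factors 3051 and 2082. On recovered reads edgeR tested 54 members and called 25 higher and 1 lower, beside 2126 higher and 2420 lower of 18234 genes. There dkk2 (0.0739) and nkd1 (0.0513) were lost and wnt2 was not tested. No named result changed direction past the threshold.

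Deviations of same-numbered libraries had correlations of 0.06, 0.002 and 0.19 between cardiac crest and non-crest and 0.04, 0.04 and -0.06 between cardiac and trunk crest. Differently numbered libraries of cardiac crest and non-crest gave -0.25 to 0.30, so these values do not settle whether libraries were paired. Same-numbered fractions of 17 h carry consecutive library numbers, but pairing is not labelled and the main test was unpaired. With the replicate block 284 genes, 0 members and 1 of the wider list were called against non-crest. Against trunk crest the block gave 4273 genes and 28 members, axin1 and wnt7ba being lost and fzd8b gained. Precision is limited by 3 libraries per group and, for wnt1 and wnt10b, by 2 reads in all of trunk crest. The cause of these shifts was not tested.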
